A study of Homo sapiens with 5 samples.

Results

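The transcriptome of B3GALT5-knockout H9 cells grown in 2iLAF (KO 2iLAF) was set against that of wild-type H9 cells grown in 5iLAF (WT 5iLAF), the 2 libraries of the series that the labels call naive. H9 is a human embryonic stem cell line, and the knockout cells are labelled B3GALT5-/-. Genes were taken where either library reached 1 TPM (an abundance scaled for gene length and for the total of the library), which kept 14533 of the 26506 gene symbols measured. The series holds 3 further libraries, from wild-type cells in 2iLAF (WT 2iLAF, labelled primed-naive), knockout cells in basal medium (KO basal, labelled primed) and wild-type cells in basal medium (WT basal, labelled primed). Each group is 1 library of poly(A)-selected RNA, so no test was possible, no error between cultures can be given, and the values describe these libraries. Between KO 2iLAF and WT 5iLAF the genotype and the medium both differ, and the 2 cannot be told apart. Whether the knockout line is 1 clone, and which part of the gene was edited, is not given in the sources used here.

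Human embryonic stem cells in basal medium hold a primed state that resembles the epiblast after implantation, while naive cells resemble the epiblast before it. 5iLAF joins inhibitors of the MEK, GSK3, BRAF, SRC and ROCK kinases with LIF, activin A and FGF2, and 2iLAF keeps the MEK and GSK3 inhibitors with the same factors. Activin A and endogenous NODAL act through SMAD2 and SMAD3, and an active WNT pathway together with NODAL induces primitive streak and mesoderm genes in cells that leave pluripotency. B3GALT5 adds galactose to the globo-series glycosphingolipid Gb4 and so makes SSEA-3, a surface antigen of human pluripotent cells.

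The B3GALT5 transcript itself was at 1.17 TPM in KO 2iLAF, 2.08 TPM in WT 5iLAF, 5.13 TPM in WT 2iLAF, 5.98 TPM in KO basal and 9.31 TPM in WT basal. It was therefore lowest in KO 2iLAF and detected in both knockout libraries, and with the edited part unknown its level does not check the knockout.

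Differences were taken as log2((TPM + 1)/(TPM + 1)) of KO 2iLAF over WT 5iLAF, called the log2 ratio here, and genes with a ratio of 1 or more in size, that is 2-fold on this scale, were counted as higher or lower in KO 2iLAF. Counted as higher were 772 genes (5.31% of 14533) and counted as lower were 163 genes (1.12%), so 82.57% of the 935 counted genes were higher in KO 2iLAF. Most genes were close: 11925 genes, or 82.05%, lay within 0.5 of a log2 ratio of 0, and the median over all 14533 genes was -0.0012. The Pearson correlation of the 2 libraries across these genes was 0.963 and the Spearman correlation 0.965, given as descriptions since genes are not independent replicates. The counted share was lower among abundant genes. Among 3661 genes with a mean of the 2 libraries under 5 TPM, 11.83% were higher and 2.46% lower, while among 1565 genes with a mean of 100 TPM or more, 22 genes (1.41%) were higher and 3 genes (0.19%) lower. At 1 TPM or more stood 13395 genes in both libraries, 761 genes in KO 2iLAF alone and 377 genes in WT 5iLAF alone. Of the 772 higher genes, 150 were listed at 0 in WT 5iLAF and 296 reached 10 TPM in either library. The table gives abundances and not counts, so depth is unknown and a gene listed at 0 has no detection limit.

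**Figure D1:**
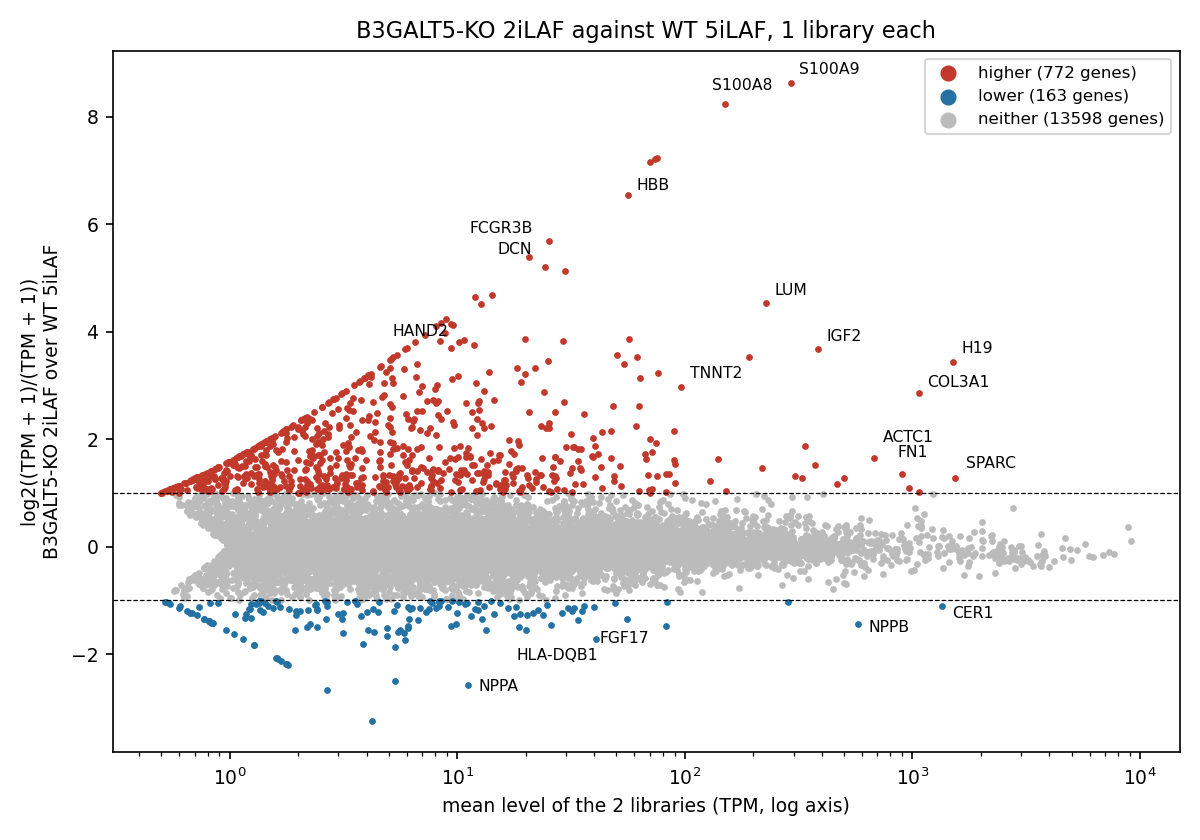
Each point is 1 of 14533 genes, with the mean level of KO 2iLAF and WT 5iLAF on a log TPM axis and the log2 ratio on the other axis. The 772 higher genes reach ratios above 8 (S100A9 and S100A8), the 163 lower genes reach -2.57 among genes at 10 TPM or more (NPPA), and the dashed lines mark the size rule.

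Genes just inside the 1 TPM limit were ACPP, at 1.00 TPM in KO 2iLAF and 0.69 TPM in WT 5iLAF, and GARNL3, at 0.88 TPM in KO 2iLAF and 1.0 TPM in WT 5iLAF. Just outside were CBLC, at 0.99 TPM in KO 2iLAF and 0.77 TPM in WT 5iLAF, and FOXD1, at 0.99 TPM in KO 2iLAF and 0.59 TPM in WT 5iLAF. At the edge of the size rule, LOC100133985 at 3.0 TPM in KO 2iLAF and 1.0 TPM in WT 5iLAF was counted, and NIPAL3 at 8.03 TPM in KO 2iLAF and 3.53 TPM in WT 5iLAF was not.

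The naive label was checked against marker genes. Of 32 naive markers, 12 were below 1 TPM in both libraries. KLF17, a transcription factor that defines human naive cells, was listed at 0 in KO 2iLAF and at 0.12 TPM in WT 5iLAF. DPPA5, an RNA-binding protein of naive cells, was listed at 0 in KO 2iLAF and at 0.20 TPM in WT 5iLAF. DNMT3L, a cofactor of the de novo DNA methyltransferases, was present at 51.4 TPM in KO 2iLAF and 76.4 TPM in WT 5iLAF, against 1.57 TPM in WT 2iLAF and 0.04 TPM in KO basal. TFAP2C, a factor of naive cells and of trophoblast, stood at 48.6 TPM in KO 2iLAF and 55.2 TPM in WT 5iLAF. The 2 libraries thus carried some naive markers and lacked others, and they are named here by genotype and medium and not by state.

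Between the 2 libraries most markers of pluripotency did not reach the size rule, and neither did most genes. Over all genes, 5.31% were higher and 1.12% lower. Of the 20 naive markers that passed 1 TPM, 1 was higher in KO 2iLAF and none lower (median log2 ratio -0.15). That gene was KLF2, a factor of naive pluripotency in mouse, at 33.0 TPM in KO 2iLAF and 14.8 TPM in WT 5iLAF, and it was at or below 0.14 TPM in the other 3 libraries. Of 14 core pluripotency factors that passed, none was counted (median -0.16). POU5F1, which encodes OCT4, was at 1601 TPM in KO 2iLAF and 1944 TPM in WT 5iLAF (log2 ratio -0.28). NANOG was at 99.0 TPM in KO 2iLAF and 124 TPM in WT 5iLAF (-0.32), and SOX2 at 55.3 TPM in KO 2iLAF and 65.6 TPM in WT 5iLAF (-0.24). All 3 were nominally lower in KO 2iLAF and did not reach the size rule. Of 24 primed markers that passed, the surface glycoprotein THY1 was higher, at 37.7 TPM in KO 2iLAF and 14.3 TPM in WT 5iLAF. The secreted glycoprotein STC1 was lower, at 9.99 TPM in KO 2iLAF and 23.4 TPM in WT 5iLAF.

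The NODAL ligand and its feedback inhibitors were abundant in both libraries. Of 18 NODAL and activin pathway genes that passed, none was higher and 1 was lower, with a median log2 ratio of -0.18. CER1, a secreted antagonist of NODAL, BMP and WNT, was the lower gene, at 852 TPM in KO 2iLAF and 1832 TPM in WT 5iLAF, and it was at or below 3.63 TPM in the other 3 libraries. The ligand NODAL was at 406 TPM in KO 2iLAF and 586 TPM in WT 5iLAF (-0.53). Its inhibitor LEFTY2 was at 1385 TPM in KO 2iLAF and 1985 TPM in WT 5iLAF (-0.52), and LEFTY1 was at 202 TPM in KO 2iLAF and 332 TPM in WT 5iLAF (-0.71). The LEFTY genes are near-identical copies, so the split of reads between them is uncertain. The SMAD partner FOXH1 was at 60.2 TPM in KO 2iLAF and 102 TPM in WT 5iLAF (-0.75). CFC1, a NODAL coreceptor of the same family as TDGF1, was among the 15 lowest ratios, at 3.31 TPM in KO 2iLAF and 10.1 TPM in WT 5iLAF. The receptor genes ACVR1B and ACVR2A and the SMAD genes were near level: SMAD2 was at 14.1 TPM in KO 2iLAF and 12.3 TPM in WT 5iLAF, and SMAD3 at 32.2 TPM in KO 2iLAF and 37.5 TPM in WT 5iLAF.

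The counts of other signalling lists, here and in the next paragraph, stand beside 5.31% higher and 1.12% lower over all genes. Of 22 WNT targets, 1 was higher (median -0.09): LEF1, a nuclear partner of beta-catenin, at 34.1 TPM in KO 2iLAF and 16.2 TPM in WT 5iLAF. The feedback inhibitor AXIN2 was at 66.2 TPM in KO 2iLAF and 74.6 TPM in WT 5iLAF, and the target SP5 at 122 TPM in KO 2iLAF and 109.6 TPM in WT 5iLAF. Of 19 BMP pathway genes, 3 inhibitors were higher (median 0.02). NOG was at 7.36 TPM in KO 2iLAF and 1.74 TPM in WT 5iLAF, and GREM1 at 9.43 TPM in KO 2iLAF and 2.63 TPM in WT 5iLAF, both secreted antagonists. BAMBI, a pseudoreceptor, was at 180.4 TPM in KO 2iLAF and 77.1 TPM in WT 5iLAF. The ligand BMP4 stood near level, at 84.4 TPM in KO 2iLAF and 74.5 TPM in WT 5iLAF.

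MEK, the kinase before ERK, is inhibited in both media. Of 19 ERK targets, ETV4 and FOS were higher (median 0.05), ETV4 at 18.4 TPM in KO 2iLAF and 7.44 TPM in WT 5iLAF. The phosphatase gene DUSP6, a direct readout of ERK activity, was at 4.66 TPM in KO 2iLAF and 2.98 TPM in WT 5iLAF, against 369.9 TPM in KO basal and 303 TPM in WT basal. Of the FGF ligand genes, FGF17 was lower, at 43.0 TPM in KO 2iLAF and 122 TPM in WT 5iLAF, and FGF4 was not counted, at 33.9 TPM in KO 2iLAF and 41.2 TPM in WT 5iLAF. Of 17 YAP and TEAD targets, 3 were higher and 1 lower (median 0.35). F3, which encodes tissue factor, was at 63.3 TPM in KO 2iLAF and 22.1 TPM in WT 5iLAF. ANKRD1, a nuclear protein of stretched muscle, was at 54.5 TPM in KO 2iLAF and 112 TPM in WT 5iLAF. Of 22 p53 targets, none was counted (median -0.07). Of 18 immediate-early and AP-1 genes 1 was higher (median 0.18), and of 16 retinoic acid genes 1 was higher (median -0.02), the retinol dehydrogenase gene RDH10, at 17.8 TPM in KO 2iLAF and 4.86 TPM in WT 5iLAF.

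Matrix genes were counted as higher more often than lower in KO 2iLAF, although most were not counted. Of 27 collagen chains, 9 were higher, where 5.31% of all genes were, and 1 was lower, with a median log2 ratio of 0.78 against -0.0012 over all genes, and their summed level was 8908 TPM in KO 2iLAF and 4113 TPM in WT 5iLAF. The same sum was 893.6 TPM in WT 2iLAF, 796 TPM in KO basal and 747 TPM in WT basal, so both libraries lay above the other 3. COL3A1, the fibril chain of soft connective tissue, was at 1871 TPM in KO 2iLAF and 258 TPM in WT 5iLAF, and at most 0.30 TPM in the other 3 libraries. Of the type I chains, COL1A1 was at 1629.9 TPM in KO 2iLAF and 827 TPM in WT 5iLAF (0.98, just below the size rule). COL1A2 was at 1426 TPM in KO 2iLAF and 708 TPM in WT 5iLAF (1.01). The basement membrane chain COL4A1 was at 705 TPM in KO 2iLAF and 291 TPM in WT 5iLAF. COL6A3 of the microfibrillar type VI collagen was at 99.6 TPM in KO 2iLAF and 8.58 TPM in WT 5iLAF, while its partner chain COL6A1 was at 387 TPM in KO 2iLAF and 202 TPM in WT 5iLAF. COL15A1, a basement membrane zone collagen, had the largest collagen ratio (3.86), at 38.0 TPM in KO 2iLAF and 1.69 TPM in WT 5iLAF. The cartilage collagen COL2A1 went the other way, at 4.23 TPM in KO 2iLAF and 10.7 TPM in WT 5iLAF. In bulk RNA a difference in the number of cells of a type and one in RNA per cell cannot be told apart.

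The counts in this paragraph and the next stand beside 5.31% higher and 1.12% lower over all genes. Of 16 collagen processing enzymes, 3 were higher and none lower (median 0.51): PCOLCE, which enhances procollagen cleavage, the prolyl hydroxylase subunit P4HA2 and the lysyl hydroxylase PLOD2. PLOD2 was at 123 TPM in KO 2iLAF and 47.5 TPM in WT 5iLAF. The collagen chaperone SERPINH1 was not counted, at 1232 TPM in KO 2iLAF and 851 TPM in WT 5iLAF. Of 25 fibroblast and matricellular genes, 9 were higher and 1 lower (median 0.52). The small leucine-rich proteoglycan gene LUM was at 438 TPM in KO 2iLAF and 18.0 TPM in WT 5iLAF. Its relative DCN was at 48.3 TPM in KO 2iLAF and 0.33 TPM in WT 5iLAF, and was listed at 0 in the other 3 libraries. OGN and FMOD of the same family were also higher, and OGN was at 10.9 TPM in KO 2iLAF and 1.56 TPM in WT 5iLAF. The lower gene was MFAP4, an elastic fibre protein, at 31.9 TPM in KO 2iLAF and 67.1 TPM in WT 5iLAF. Not counted were the receptor gene PDGFRA, at 17.1 TPM in KO 2iLAF and 14.4 TPM in WT 5iLAF, and the matrix gene POSTN, at 38.9 TPM in KO 2iLAF and 29.1 TPM in WT 5iLAF. Of 22 integrin and laminin subunits, 3 were higher and 1 lower (median 0.13). ITGA11, a collagen-binding integrin of fibroblasts, was at 115 TPM in KO 2iLAF and 12.2 TPM in WT 5iLAF, and ITGA1, also collagen-binding, at 24.0 TPM in KO 2iLAF and 4.25 TPM in WT 5iLAF.

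Of 18 mesenchymal and EMT genes, 5 were higher and none lower (median 0.60). FN1, which encodes fibronectin, was at 1292 TPM in KO 2iLAF and 505 TPM in WT 5iLAF, and SPARC, a collagen-binding matricellular protein, at 2183 TPM in KO 2iLAF and 899.5 TPM in WT 5iLAF. SNAI2, a repressor of epithelial genes, was at 47.3 TPM in KO 2iLAF and 16.6 TPM in WT 5iLAF. No other regulator of this transition in the list was counted. TWIST1 was at 18.6 TPM in KO 2iLAF and 11.8 TPM in WT 5iLAF (0.62) and ZEB2 at 27.6 TPM in KO 2iLAF and 20.2 TPM in WT 5iLAF (0.43). ZEB1 was at 8.03 TPM in KO 2iLAF and 8.21 TPM in WT 5iLAF, SNAI1 at 15.8 TPM in KO 2iLAF and 17.5 TPM in WT 5iLAF, and the intermediate filament gene VIM at 2354 TPM in KO 2iLAF and 2065 TPM in WT 5iLAF. Of 20 epithelial genes that passed, 1 was lower and none higher (median -0.12, and 0.03 with no filter): RAB25, a trafficking GTPase of epithelia, at 3.03 TPM in KO 2iLAF and 9.26 TPM in WT 5iLAF. CDH1, which encodes E-cadherin, was at 25.1 TPM in KO 2iLAF and 31.1 TPM in WT 5iLAF (-0.30), against 233 TPM in WT 2iLAF and 115 TPM in WT basal.

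**Figure D2:**
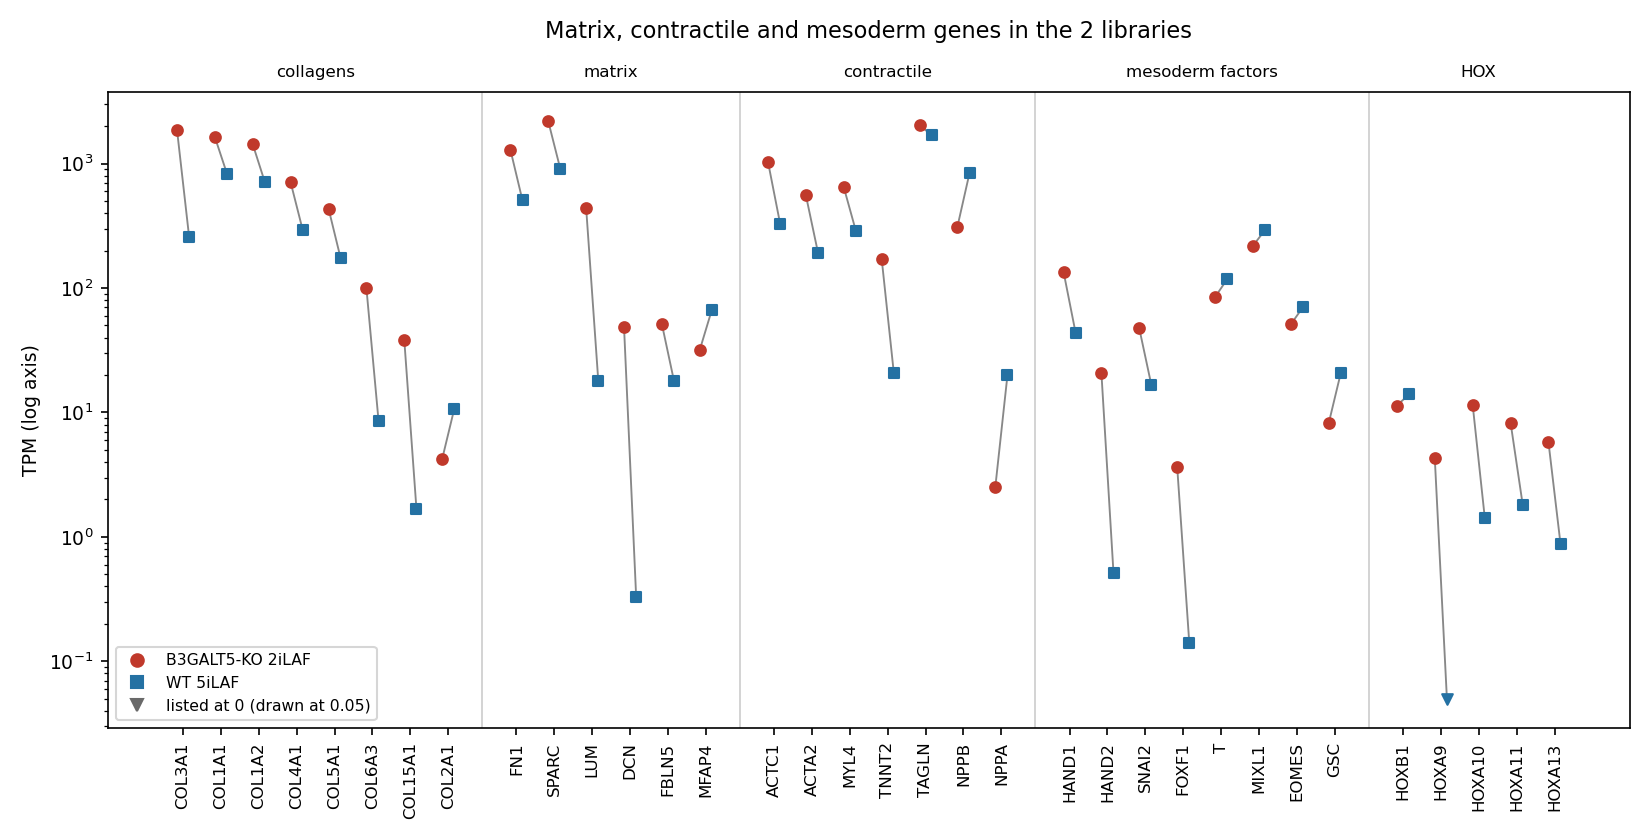
Levels of matrix, contractile, mesoderm and HOX genes are drawn in TPM on a log axis, with a circle for KO 2iLAF joined to a square for WT 5iLAF. Circles lie far above squares for COL3A1, LUM, DCN, TNNT2, HAND2 and HOXA10, close to them for HOXB1 and TAGLN, and below them for NPPA, NPPB, GSC and COL2A1. HOXA9, listed at 0 in WT 5iLAF, is drawn at 0.05.

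Contractile genes were higher in part. The actin genes ACTC1 of heart and ACTG2 of visceral smooth muscle are shown with their promoters because the CArG box, the binding motif of serum response factor (SRF), stands before both, although their ratios differed. The sequences are from RefSeq (GRCh38.p14) and run 5′ to 3′ on the strand of the gene, from 250 bases before the start to 50 after it, with CArG boxes in capitals. ACTC1 is on the minus strand at chr15:34795500-34795799 and ACTG2 on the plus strand at chr2:73892758-73893057.
ACTC1: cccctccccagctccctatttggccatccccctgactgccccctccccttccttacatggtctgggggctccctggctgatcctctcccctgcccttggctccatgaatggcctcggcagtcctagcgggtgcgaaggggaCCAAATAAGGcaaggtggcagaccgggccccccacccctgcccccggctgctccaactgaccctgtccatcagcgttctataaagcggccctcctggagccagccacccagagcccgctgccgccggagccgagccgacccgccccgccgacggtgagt
ACTG2: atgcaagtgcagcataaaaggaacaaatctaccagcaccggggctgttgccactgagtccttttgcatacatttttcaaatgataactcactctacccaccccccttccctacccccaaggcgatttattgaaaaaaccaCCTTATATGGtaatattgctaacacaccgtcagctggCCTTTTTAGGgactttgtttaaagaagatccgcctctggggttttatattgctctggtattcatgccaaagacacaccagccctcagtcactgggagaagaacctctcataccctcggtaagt
Counted in bases from the start of the gene, the ACTC1 box begins at -109 and the ACTG2 boxes at -110 and -73. ACTC1 was at 1030.0 TPM in KO 2iLAF and 328 TPM in WT 5iLAF (1.65), and ACTG2 at 632 TPM in KO 2iLAF and 494 TPM in WT 5iLAF (0.35). A CArG box on either strand was found in 17 of the 501 higher genes with a promoter in the table (3.39%), 0 of 78 lower genes and 122 of all 10669 passing genes (1.14%). It was found in 3 of 12 smooth muscle genes, 2 of 14 cardiac genes and 0 of 18 collagen genes with a promoter. Beside ACTC1 and ACTG2, these muscle genes were CNN2 (log2 ratio 0.05), MYLK (0.17) and MYL7 (0.06). Of the muscle genes with a box, ACTC1 alone was counted. In comparison, TGANTCA, the AP-1 motif, was in 8.58% of higher, 11.5% of lower and 4.61% of all passing genes. GGAATG, the TEAD motif, was in 12.8% of higher, 15.4% of lower and 10.9% of all passing genes, and AGGTGTGA, a T-box motif, in 0.599% of higher, 1.28% of lower and 0.665% of all passing genes. Over all 27305 promoters, whether or not their gene passed, the CArG box was in 1.285%, TGANTCA in 7.76%, GGAATG in 14.0% and AGGTGTGA in 0.982%. A match is a description of the letters and not a binding site.

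Of 16 smooth muscle genes that passed, 3 were higher and none lower, against 5.31% higher and 1.12% lower over all genes. All 16 had ratios above 0, where 7233 of all 14533 genes had, and the median was 0.37. Members that passed 1 TPM through KO 2iLAF alone had to lie above 0. ACTA2, the smooth muscle actin, was at 555 TPM in KO 2iLAF and 192 TPM in WT 5iLAF. MYOCD, a coactivator of SRF in muscle, was at 5.46 TPM in KO 2iLAF and 1.84 TPM in WT 5iLAF, and SRF itself was level at 101 TPM in KO 2iLAF and 98.7 TPM in WT 5iLAF. The actin-binding gene TAGLN was abundant in both, at 2037 TPM in KO 2iLAF and 1686 TPM in WT 5iLAF. Of 23 cytoskeletal actin regulators, none was counted (median 0.10), which in a list this short is near the share over all genes.

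Cardiac genes split. Of 16 that passed, 6 were higher and 2 lower (median 0.34), against 5.31% higher and 1.12% lower over all genes. Members that passed 1 TPM through KO 2iLAF alone, PLN and HAND2 among them, had to lie high there. The count and the median are thus descriptions. The median was 0.06 with no filter, 0.06 with a filter of 5 TPM and 0.14 with a pseudocount of 5 TPM. Some sarcomere genes were among the higher: TNNT2, cardiac troponin T, was at 172 TPM in KO 2iLAF and 20.9 TPM in WT 5iLAF, and the atrial light chain MYL4 at 645 TPM in KO 2iLAF and 287 TPM in WT 5iLAF. PLN, phospholamban, was at 13.2 TPM in KO 2iLAF and 0.79 TPM in WT 5iLAF. MYL7, the atrial regulatory light chain, was level at 448 TPM in KO 2iLAF and 428 TPM in WT 5iLAF. The natriuretic peptide genes were the lower pair. NPPA was at 2.52 TPM in KO 2iLAF and 19.9 TPM in WT 5iLAF, the lowest ratio of any gene at 10 TPM or more in either library (-2.57). NPPB was at 311 TPM in KO 2iLAF and 840.4 TPM in WT 5iLAF (-1.43). The cardiac factor gene NKX2-5 was at 4.08 TPM in KO 2iLAF and 7.92 TPM in WT 5iLAF, not counted. Of genes of mature heart muscle, the myosin heavy chain genes MYH6 and MYH7 were at or below 0.06 TPM in both libraries, while TNNI3, cardiac troponin I, was at 15.4 TPM in KO 2iLAF and 21.9 TPM in WT 5iLAF and the ventricular light chain MYL3 at 20.2 TPM in KO 2iLAF and 20.9 TPM in WT 5iLAF.

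Streak and mesoderm factors were present in both libraries, and those that differed fell on both sides. Of 21 that passed, 6 were higher and 1 lower (median 0.23), against 5.31% higher and 1.12% lower over all genes. HAND2, which is also in the cardiac list, and FOXF1 passed 1 TPM through KO 2iLAF alone. These genes had to lie high there, so the count and the median are descriptions. The early streak factors were not counted: T, which encodes brachyury, was at 84.5 TPM in KO 2iLAF and 118 TPM in WT 5iLAF, MIXL1 at 218 TPM in KO 2iLAF and 292 TPM in WT 5iLAF, and EOMES at 51.0 TPM in KO 2iLAF and 70.2 TPM in WT 5iLAF. These 3 genes were at or below 2.59 TPM in the other 3 libraries. GSC, a factor of the anterior streak, was lower, at 8.19 TPM in KO 2iLAF and 20.8 TPM in WT 5iLAF. Of the 6 higher members, SNAI2 is described above. HAND1, a factor of lateral and extraembryonic mesoderm, was at 135 TPM in KO 2iLAF and 43.5 TPM in WT 5iLAF. HAND2 was at 20.8 TPM in KO 2iLAF and 0.51 TPM in WT 5iLAF, and listed at 0 in the other 3 libraries. FOXF1, a factor of lateral plate mesoderm, was at 3.67 TPM in KO 2iLAF and 0.14 TPM in WT 5iLAF. TBX20 was at 9.07 TPM in KO 2iLAF and 1.81 TPM in WT 5iLAF. The VEGF receptor KDR was at 19.3 TPM in KO 2iLAF and 6.95 TPM in WT 5iLAF, but at 40.6 TPM in KO basal and 27.99 TPM in WT basal, above both. Without KDR, which is also in the endothelial list, the median was 0.09. Other mesoderm members were not counted, among them TBX3 at 7.0 TPM in KO 2iLAF and 9.61 TPM in WT 5iLAF and MESP1 at 1.53 TPM in KO 2iLAF and 3.56 TPM in WT 5iLAF. Of 16 endoderm markers, 1 was higher and 2, CER1 again among them, were lower (median -0.21). FOXA2, a factor of endoderm and anterior streak, was lower, at 4.91 TPM in KO 2iLAF and 11.7 TPM in WT 5iLAF, and SOX17 was not counted, at 14.6 TPM in KO 2iLAF and 17.7 TPM in WT 5iLAF. SERPINA1, alpha-1-antitrypsin of liver and also of neutrophils, was the higher one, at 7.73 TPM in KO 2iLAF and 0.98 TPM in WT 5iLAF. Neutrophil genes were higher too, and their part in the SERPINA1 level was not tested. None of 8 trophoblast markers was counted (median -0.15), and a count of 0 in a list this short is near the share over all genes.

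HOX genes, which set position along the body axis, were on in both libraries and nearly silent in the other 3. Their 33 genes summed to 161 TPM in KO 2iLAF and 96.9 TPM in WT 5iLAF, against 0.77 TPM in WT 2iLAF, 0.91 TPM in KO basal and 0.63 TPM in WT basal. Of 26 that passed 1 TPM, 9 were higher and none lower (median 0.68), against 5.31% higher and 1.12% lower over all genes. The median was 0.26 with a pseudocount of 5 TPM, 1.12 with a filter of 5 TPM and 0.47 with no filter. Of the 33 genes, 16 were below 1 TPM in WT 5iLAF and 8 in KO 2iLAF. Members that passed through KO 2iLAF alone had to lie high there, so the count and the median are descriptions. The first gene of the HOXB cluster was level, with HOXB1 at 11.4 TPM in KO 2iLAF and 14.0 TPM in WT 5iLAF. HOXA9, HOXA10, HOXA13 and HOXA11, which lie at the far end of their cluster, had the 4 largest ratios of the family. HOXA10 was at 11.5 TPM in KO 2iLAF and 1.42 TPM in WT 5iLAF. HOXA11 was at 8.29 TPM in KO 2iLAF and 1.82 TPM in WT 5iLAF, HOXA13 at 5.79 TPM in KO 2iLAF and 0.87 TPM in WT 5iLAF, and HOXA9 at 4.27 TPM in KO 2iLAF and listed at 0 in WT 5iLAF. High-numbered genes of other clusters were not counted, among them HOXC10, at 0.55 TPM in KO 2iLAF and 1.18 TPM in WT 5iLAF, and HOXD13, at 1.15 TPM in KO 2iLAF and 1.41 TPM in WT 5iLAF. HOXC10 and HOXD13 were chosen after their values were seen.

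IGF2 and H19, neighbouring imprinted genes that are expressed in fetal tissue, had 2 of the largest differences among abundant genes. IGF2, a fetal growth factor, was at 711 TPM in KO 2iLAF and 54.9 TPM in WT 5iLAF, against 2.3 TPM in WT 2iLAF, 1.91 TPM in KO basal and 1.23 TPM in WT basal. The noncoding RNA H19 was at 2762 TPM in KO 2iLAF and 253 TPM in WT 5iLAF, the largest upward difference in TPM of any gene. Both genes were thus high in KO 2iLAF, intermediate in WT 5iLAF and low elsewhere. Of 25 imprinted genes that passed, 5 were higher and none lower (median 0.20), the others being PLAGL1, DLK1 and ATP10A. The shares over all genes were 5.31% higher and 1.12% lower. PLAGL1, a zinc finger factor, was at 9.55 TPM in KO 2iLAF and 0.74 TPM in WT 5iLAF. The maternally expressed MEG3 was at 274 TPM in KO 2iLAF and 138 TPM in WT 5iLAF (0.99, just below the size rule), and SNRPN at 364 TPM in KO 2iLAF and 554 TPM in WT 5iLAF. Of 12 DNA methylation and demethylation genes, none was counted (median -0.14), which in a list this short is near the share over all genes. The binding protein IGFBP3 was higher, at 63.5 TPM in KO 2iLAF and 16.6 TPM in WT 5iLAF, while the receptor IGF1R was level at 23.9 TPM in KO 2iLAF and 27.5 TPM in WT 5iLAF.

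**Figure D3:**
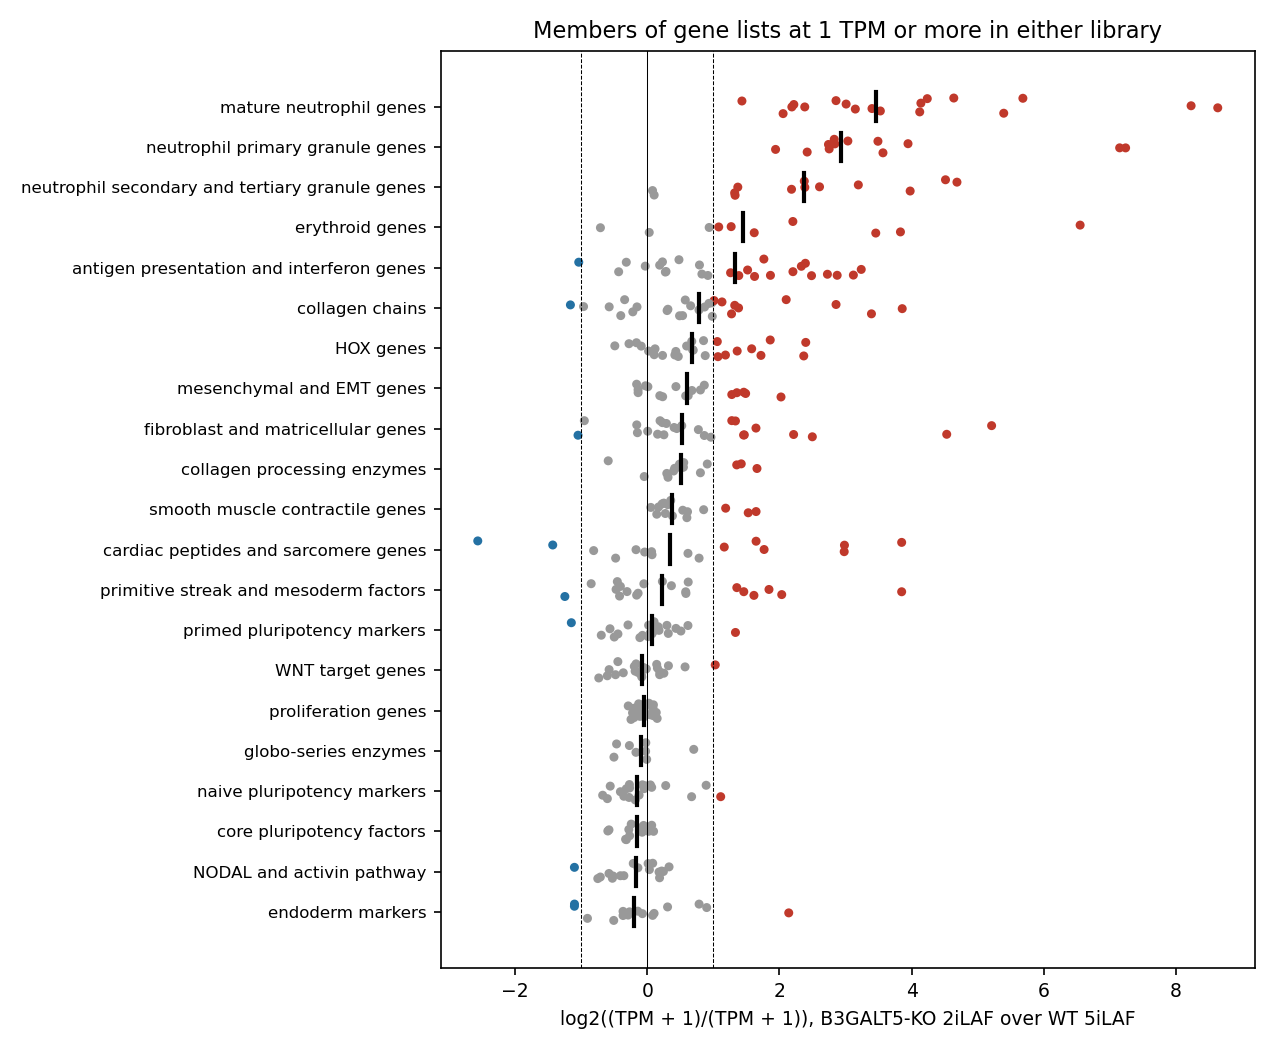
Each point is the log2 ratio of a list member that passed 1 TPM, with a row for each gene list, a black bar at the list median, red for higher, blue for lower and grey for genes not counted. The neutrophil lists lie farthest to the right, with medians of 2.38 to 3.46, the collagen and HOX lists have medians of 0.78 and 0.68, and the proliferation and core pluripotency lists lie around 0.

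Genes of blood cells had the largest ratios. Over the 8 lists of blood cell genes, 81 genes passed 1 TPM, of which 64 were higher and none lower. The counts here and in the next paragraph stand beside 5.31% higher and 1.12% lower over all genes. The 12 primary granule genes of neutrophils that passed were all higher (median log2 ratio 2.94), as were all 18 genes of mature neutrophils (median 3.46) and 11 of 13 secondary and tertiary granule genes (median 2.38). S100A9, a subunit of the calcium-binding protein calprotectin, was at 583 TPM in KO 2iLAF and 0.47 TPM in WT 5iLAF. Its partner S100A8 was at 299 TPM in KO 2iLAF and listed at 0 in WT 5iLAF. Both were listed at 0 in the other 3 libraries. The neutrophil Fc receptor gene FCGR3B was at 50.4 TPM in KO 2iLAF, the granule protein gene LTF at 28.4 TPM and the elastase gene ELANE at 10.2 TPM, while in WT 5iLAF FCGR3B and ELANE were listed at 0 and LTF was at 0.14 TPM. The defensin genes DEFA1, DEFA1B and DEFA3 each stood between 141 and 150.1 TPM in KO 2iLAF and were listed at 0 in WT 5iLAF, and being near-identical copies they are uncertain as single values. Genes that passed 1 TPM through KO 2iLAF alone had to lie high there, so the counts and medians of these lists are descriptions, and the sums that follow take every member in the table. The 46 neutrophil genes in the table summed to 1733 TPM in KO 2iLAF and 42.1 TPM in WT 5iLAF, against 9.90 TPM in WT 2iLAF, 15.5 TPM in KO basal and 22.1 TPM in WT basal. Of these sums MMP9, which was not counted, held 25.1 TPM in KO 2iLAF and 23.7 TPM in WT 5iLAF.

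Globins followed another pattern across the libraries. HBB, the adult beta-globin, was at 112 TPM in KO 2iLAF and 0.21 TPM in WT 5iLAF, but at 140.2 TPM in WT basal. The 10 globin genes summed to 222 TPM in KO 2iLAF, 12.3 TPM in WT 5iLAF, 3.67 TPM in WT 2iLAF, 6.01 TPM in KO basal and 226 TPM in WT basal. Both KO 2iLAF and WT basal thus carried globin transcripts, and KO 2iLAF alone carried the neutrophil genes at this level. Of 8 lymphocyte genes that passed, 6 were higher (median 1.82), mostly cytotoxic effector genes, but 7 of the 8 passed through KO 2iLAF alone. The median was 0.82 with no filter and 0.62 with a pseudocount of 5 TPM. NKG7 was at 8.13 TPM in KO 2iLAF and listed at 0 in WT 5iLAF. Of 7 monocyte and macrophage genes, 3 were higher, FCN1 among them at 17.0 TPM in KO 2iLAF and listed at 0 in WT 5iLAF. Of B cell genes, MS4A1 was at 0.16 TPM in KO 2iLAF and listed at 0 in WT 5iLAF, and CD79B was at 3.51 TPM in KO 2iLAF and 1.98 TPM in WT 5iLAF. Of 9 platelet and megakaryocyte genes, 7 were below 1 TPM in both libraries and none was counted. The platelet chemokine gene PF4 was at 0.26 TPM in KO 2iLAF and 0.75 TPM in WT 5iLAF, the integrin gene ITGA2B at 2.52 TPM in KO 2iLAF and 3.96 TPM in WT 5iLAF, and PLEK, which other blood cells also express, at 20.4 TPM in KO 2iLAF and 10.7 TPM in WT 5iLAF. The stem cell marker CD34 was at 0.23 TPM in KO 2iLAF and 0.51 TPM in WT 5iLAF, and the blood and endothelial factor gene TAL1 at 0.13 TPM in KO 2iLAF and listed at 0 in WT 5iLAF. CD34 and TAL1 belong to a list of pan-haematopoietic genes, those of blood cells in general. Of its 11 members that passed, 7 were higher and none lower (median 1.94, and 1.11 with no filter). PTPRC was at 8.83 TPM in KO 2iLAF and 1.57 TPM in WT 5iLAF, and SRGN at 58.5 TPM in KO 2iLAF and 0.70 TPM in WT 5iLAF. Among those not counted, SPI1, a myeloid factor, and LCP1, an actin bundler of leukocytes, were high in both. SPI1 was at 24.6 TPM in KO 2iLAF and 15.7 TPM in WT 5iLAF, and LCP1 at 75.1 TPM in KO 2iLAF and 85.9 TPM in WT 5iLAF. Without the genes of the blood and endothelial lists, 707 genes were higher and 163 lower. Only listed genes were left out, so the 707 still hold blood cell genes outside the lists, such as DEFA1B.

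**Figure D4:**
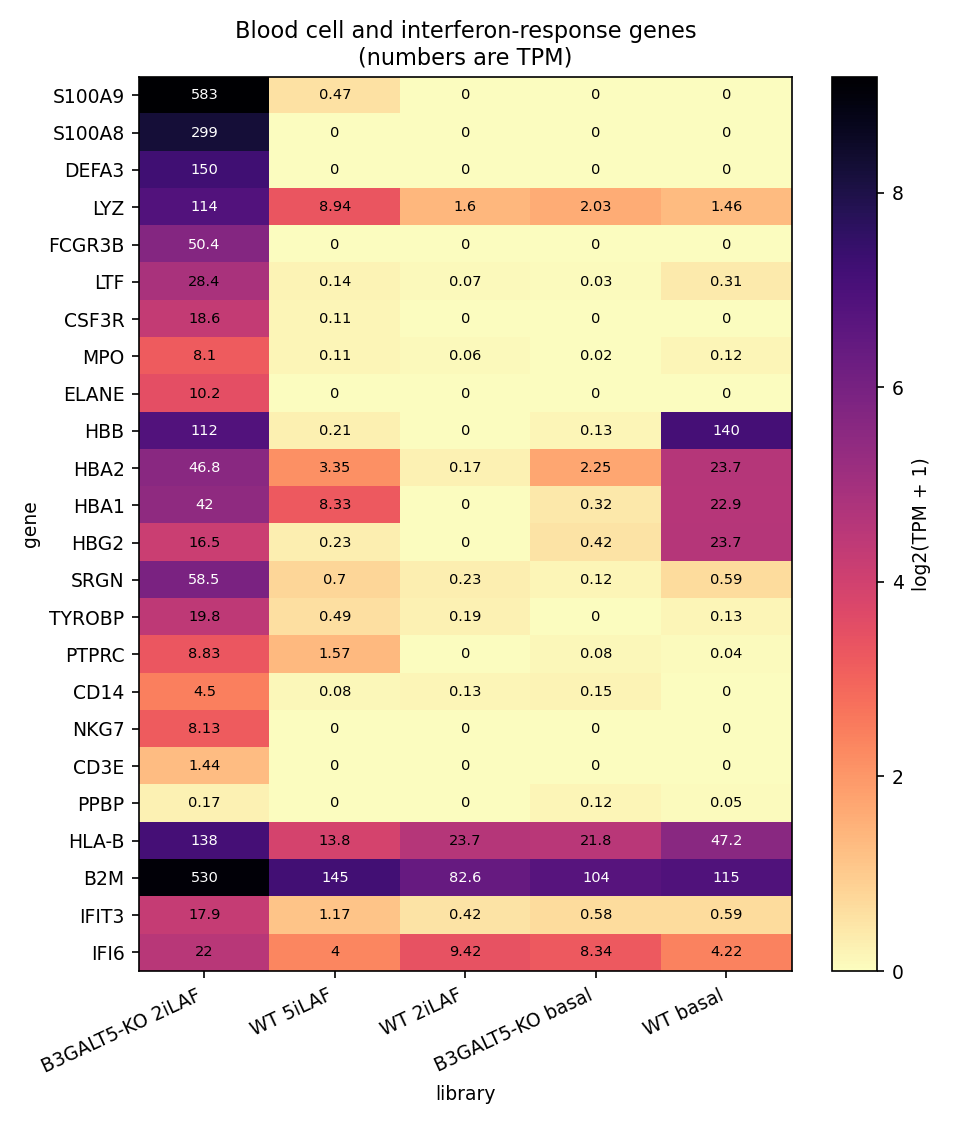
Rows are blood cell and interferon-response genes and columns the 5 libraries, with the TPM value printed in each cell and log2(TPM + 1) as the shade (darker is higher). Neutrophil genes such as S100A9, S100A8 and FCGR3B stand high in KO 2iLAF (drawn as B3GALT5-KO 2iLAF) and at or near 0 elsewhere, while HBB is at 112 TPM in KO 2iLAF and 140.2 TPM in WT basal and at or below 0.21 TPM in the other 3 libraries.

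Of 26 genes of antigen presentation and the interferon response, 14 were higher and 1 lower, where 5.31% of all genes were higher and 1.12% lower. The median log2 ratio was 1.32, or 0.59 with a pseudocount of 5 TPM. All 26 passed 1 TPM, but 7 of them passed through KO 2iLAF alone and so had to lie high there. These 7 are among the 14 higher genes, so the count and the median are descriptions. HLA-B, a class I heavy chain, was at 138 TPM in KO 2iLAF and 13.8 TPM in WT 5iLAF, against 23.7 TPM in WT 2iLAF, 21.8 TPM in KO basal and 47.2 TPM in WT basal. The class I light chain B2M was at 530.1 TPM in KO 2iLAF and 145 TPM in WT 5iLAF. HLA-C, another class I heavy chain, was not counted, at 193 TPM in KO 2iLAF and 139 TPM in WT 5iLAF. The HLA genes are similar in sequence and vary between people, so how reads were divided among them is uncertain. Of interferon-induced genes, IFIT3 was at 17.9 TPM in KO 2iLAF and 1.17 TPM in WT 5iLAF, and OAS1 at 7.27 TPM in KO 2iLAF and 0.25 TPM in WT 5iLAF. BST2, a membrane protein that tethers virions, was lower, at 186 TPM in KO 2iLAF and 383 TPM in WT 5iLAF. Blood cells also express class I and interferon genes, and their part in this result was not tested. The blood cell lists summed to 2573 TPM in KO 2iLAF and 442 TPM in WT 5iLAF. Much of the WT 5iLAF sum lay in genes that were not counted. VCAN was at 176 TPM in KO 2iLAF and 149 TPM in WT 5iLAF, LCP1 at 75.1 and 85.9 TPM, and CA2 at 53.2 and 52.1 TPM. HLA-DQB1, a class II chain outside the list, was lower, at 18.5 TPM in KO 2iLAF and 62.9 TPM in WT 5iLAF.

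The 163 lower genes included 57 that reached 10 TPM in either library and 33 listed at 0 in KO 2iLAF. Beside NPPA, NPPB, FGF17, CFC1 and HLA-DQB1, the 15 lowest ratios held GSTT1, a glutathione transferase, at 9.34 TPM in KO 2iLAF and 28.1 TPM in WT 5iLAF. HES6, a modulator of the Notch effector family, was at 18.6 TPM in KO 2iLAF and 49.3 TPM in WT 5iLAF. CALB1, the calcium-binding protein calbindin, was at 31.0 TPM in KO 2iLAF and 80.5 TPM in WT 5iLAF. By absolute difference, 9 of the 10 largest downward differences were ribosomal protein genes, whose log2 ratios were small. RPL7A was at 3473 TPM in KO 2iLAF and 4492 TPM in WT 5iLAF (-0.37), and the 9 ratios lay between -0.40 for RPL38 and -0.14 for RPL41, none of them counted. The 10 largest upward differences were H19, TMSB4X, COL3A1, FTL, SPARC, COL1A1, FN1, COL1A2, ACTC1 and S100A10. TMSB4X, an actin-sequestering peptide, was at 9913 TPM in KO 2iLAF and 7709 TPM in WT 5iLAF, a log2 ratio of 0.36.

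B3GALT5 acts in glycosphingolipid synthesis, where 3 enzymes of other branches were counted and none of the globo-series was. Of 8 globo-series enzymes none was counted (median -0.10), where 5.31% of all genes were higher and 1.12% lower. B3GALT5 itself had a log2 ratio of -0.51. The Gb3 synthase A4GALT was at 18.7 TPM in KO 2iLAF and 22.7 TPM in WT 5iLAF, and the Gb4 synthase B3GALNT1 at 8.28 TPM in KO 2iLAF and 8.43 TPM in WT 5iLAF. None of 11 lacto-series enzymes was counted, with the galactosyltransferase B4GALT1 at 76.2 TPM in KO 2iLAF and 41.2 TPM in WT 5iLAF (0.87). Of 7 ganglio-series enzymes, 2 sialyltransferases were higher (median 0.28, and 0.75 with a filter of 5 TPM), ST6GALNAC3 at 17.8 TPM in KO 2iLAF and 4.91 TPM in WT 5iLAF and ST6GALNAC5 at 10.2 TPM in KO 2iLAF and 2.46 TPM in WT 5iLAF. ST6GALNAC3 was also at 14.42 TPM in WT 2iLAF, 17.01 TPM in KO basal and 14.35 TPM in WT basal. ST6GALNAC5 was at 5.49 TPM in WT 2iLAF, 6.07 TPM in KO basal and 5.76 TPM in WT basal. WT 5iLAF thus held the lowest level of either gene. Of 18 ceramide and early sphingolipid enzymes, 1 was higher (median 0.06), the sphingomyelin synthase SGMS2.

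No member was counted among 24 cholesterol synthesis genes (median -0.04), 25 glycolysis and hypoxia genes (median -0.14), 26 proliferation genes (median -0.05), 8 metallothionein genes (median 0.06) or 19 ATF4 and unfolded protein response genes (median 0.09). Over all genes, 5.31% were higher and 1.12% lower, so a count of 0 in a list this short is near that share. The proliferation marker MKI67 was at 27.1 TPM in KO 2iLAF and 30.5 TPM in WT 5iLAF, and the metallothionein MT2A at 911 TPM in KO 2iLAF and 935 TPM in WT 5iLAF. Of 15 heat shock genes, 2 were higher (median 0.20), CRYAB, a small heat shock protein of muscle, among them at 37.8 TPM in KO 2iLAF and 15.5 TPM in WT 5iLAF.

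The same genotypes can be set against each other in basal medium, in 2 libraries that share none with this comparison. There 111 of 14162 genes were higher in KO basal (0.784%) and 166 were lower (1.17%). The genes counted in both comparisons were small in number, but each share below lay above the share over all genes, in the same and in opposite directions. Low genes were counted more often, and their part in the overlap was not tested. Higher in both were 11 genes, which is 1.43% of the 772 (against 0.784% of all genes) and 9.91% of the 111 (against 5.31%). They included 4 small RNA genes and TNNT2, which was at 13.0 TPM in KO basal and 5.30 TPM in WT basal. Higher in KO 2iLAF but lower in KO basal were 21 genes, 2.72% of the 772 (against 1.17%) and 12.7% of the 166 (against 5.31%). They included 8 small RNA genes, HLA-B, FOS and the blood genes HBB, HBA1, HBA2, HBG2, HBD and ALAS2. FOS was at 3.18 TPM in KO basal and 9.64 TPM in WT basal. Lower in KO 2iLAF and higher in KO basal were 7 genes, 4.29% of the 163 (against 0.784%), among them 2 small RNA genes, BST2 and STC1. Lower in both were 8 genes, 4.91% of the 163 (against 1.17%), among them 3 small RNA genes and CALB1. NBL1, a BMP antagonist, was also lower in both, at 24.8 TPM in KO 2iLAF and 55.0 TPM in WT 5iLAF, and at 1.23 TPM in KO basal and 5.01 TPM in WT basal. NBL1 was chosen after its values were seen.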

How the data were processed

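Poly(A)-selected RNA was sequenced in 5 stranded libraries, 1 per group, per the labels' protocols. The submitters' processing notes name Trimmomatic 0.39, Bowtie2 2.3.4.1, RSEM 1.2.28 and build hg19. Neither a gene annotation nor a strand setting is given in the sources used here. Per the file headers, the table of 26506 symbols deposited by the authors holds TPM and FPKM, both estimated per gene and library. Because shared reads are split by estimate, near-identical copies are uncertain, as are overlapping or antisense genes. The 18 empty columns were not used. Without read counts the depth and the noise of low genes are unknown.

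The log2 ratio adds a pseudocount of 1 TPM, so it understates ratios of low genes. Genes at 1 TPM or more in either library entered, and a size of 1 or more was counted. The 50 gene lists and all genes named were chosen with earlier results of these data known, so they are descriptions. Named were B3GALT5, the 15 highest and 15 lowest ratios among genes at 10 TPM or more, the 10 largest TPM differences each way, list members with the largest ratios or highest levels, and any member of the naive, core, globo-series, NODAL and blood lists. Chosen outside that rule, after their values were seen, were the list members ACTG2, ATP10A, B2M, B4GALT1, BST2, CDH1, CNN2, COL2A1, COL4A1, COL6A1, DUSP6, EOMES, HLA-C, HOXA9, IGF1R, MESP1, MFAP4, MYH6, MYH7, MYL3, MYL7, MYLK, NKX2-5, PDGFRA, SGMS2, SNAI1, SNRPN, SOX17, SRF, TBX3, TNNI3, TWIST1, ZEB1 and ZEB2. On simulated data of 14533 genes with noise of 0.15 (log2), 200 genes at or above 20 TPM changed 4-fold were all counted (100%), with 0 unchanged genes counted. The noise was chosen and not taken from these data, and at that size the outcome was fixed in advance. It checks the code and gives no error rate for the counts. Changes at lower levels were not simulated. Alternatives were pseudocounts of 0.1 and 5, other filters and scalings, FPKM, leaving out the genes of the blood and endothelial lists, and size rules of 1.5-fold and 4-fold. Promoters were matched by symbol to a RefSeq table (GRCh38.p14), 10669 of 14533 genes with an entry. The work was done in Python 3.11.15 (pandas 2.3.3, numpy 2.4.6), with figures by matplotlib 3.10.9 and rank correlation by scipy 1.17.1.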

Additional observations from a re-analysis of the deposited data

How the results depend on the processing

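No paired analysis was possible because each group is 1 library. The counts of 772 higher and 163 lower genes depended on the pseudocount, filter, unit and size rule, for causes that, apart from the unit, were not tested. With a pseudocount of 0.1 there were 370 lower genes, and with 5 there were 292 higher and 31 lower. With a filter of 5 TPM there were 438 higher and 88 lower, and with FPKM in place of TPM 498 and 91. FPKM is TPM rescaled within each library, with a total of 0.4843 of the TPM total in KO 2iLAF and 0.5003 in WT 5iLAF. A filter and pseudocount of 1 FPKM therefore lie above 1 TPM, and FPKM is not a separate check. A size rule of 1.5-fold gave 1411 higher and 695 lower (67% higher), and one of 4-fold gave 215 and 11 (95.13%). FPKM moved the median of all genes to -0.0448, and the other scalings moved it by less. The genes shared with the basal comparison numbered 28 (higher in both), 49 (higher, then lower), 18 (lower, then higher) and 29 (lower in both) with a pseudocount of 0.1. With a pseudocount of 5 the same 4 numbers were 0, 4, 1 and 0. Of the log2 ratios of 51 named genes, 252 values kept their side of the size rule and 3 did not: CFC1 (-0.87) and NUDT4P1 (-0.95) with a pseudocount of 5, and COL1A2 (0.96) with FPKM. Of the list medians, 415 stayed and 17 moved, most of them medians of blood cell lists (mature neutrophil genes 6.07 with a pseudocount of 0.1 and 1.97 with 5, secondary and tertiary granule genes 0.88 with 5) or of the small endothelial and neuroectoderm lists, and 1 of them the median of the HOX genes (1.12 with a filter of 5 TPM). Medians that stayed within their range could still change in proportion: that of the cardiac genes was 0.34, and 0.06 with no filter, and that of the erythroid genes was 1.44, and 0.43 with a pseudocount of 5. Depth is unknown, so no limit on low genes could be set, and no difference has a replicate.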

Other observations

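The genes that follow are outside the lists and were chosen after their values were seen, so they stand for no group. RSPO2, a secreted enhancer of WNT signalling, was at 107 TPM in KO 2iLAF and 6.45 TPM in WT 5iLAF. HGF, the ligand of the MET receptor, was at 55.3 TPM in KO 2iLAF and 2.97 TPM in WT 5iLAF, and WNT2, a ligand expressed in lateral mesoderm, at 23.0 TPM in KO 2iLAF and 0.79 TPM in WT 5iLAF. WNT5A was level, at 24.6 TPM in KO 2iLAF and 23.2 TPM in WT 5iLAF. The matrix protein gene EGFL6 was at 93.9 TPM in KO 2iLAF and 6.97 TPM in WT 5iLAF, and the water channel gene AQP1 at 352 TPM in KO 2iLAF and 29.5 TPM in WT 5iLAF. MEOX1, a homeobox factor of paraxial mesoderm, was at 25.8 TPM in KO 2iLAF and 1.83 TPM in WT 5iLAF. RSPO2, HGF, WNT2, EGFL6, AQP1 and MEOX1 were each below 1 TPM in the other 3 libraries.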
